A study of Oncorhynchus mykiss with 18 samples.

Results

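The difference between the responses of tank water and epidermal mucus to an acute stressor was measured for the known microRNAs (miRNAs) of rainbow trout. For each miRNA, the change from control to stressed water was compared with the change from control to stressed mucus, and the interaction of sample type with treatment was tested. The members were the rows of the count table named after Atlantic salmon miRNAs. Of 212 such rows, 174 held counts in the mucus and water libraries, and rows with identical counts were kept once, which left 157 miRNAs. After removal of low counts, 117 of the 157 were tested singly and 40 were not. Summed by miRNA number and arm, the 157 formed families, of which 80 were tested and 23 were not.

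Small RNA was sequenced from rainbow trout (Oncorhynchus mykiss), and 12 of the 18 libraries are used here, as 4 groups of 3. Control mucus was scraped from the skin of fish not exposed to air, and control water was taken from the same tanks before the stressor. Stressed water and stressed mucus were taken 1 h after the remaining fish had been held in air for 3 min. Age, sex and genotype of the fish are not given in the sources used here. Each mucus library came from 1 fish, different fish gave the control and the stressed mucus, and both waters of a replicate came from 1 tank. Water was filtered before extraction and was extracted with another kit than mucus, so sample type and extraction method cannot be told apart. In both sample types, more release of a miRNA and less of the others cannot be told apart, because counts are relative within a library.

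MicroRNAs are short RNAs that guide a silencing complex to messenger RNAs with a matching site, most of all through the seed near their 5′ end. Outside of cells they persist in vesicles and protein complexes, and water around a fish can receive them from mucus, gill, gut and urine. Fish mucus covers a living epidermis with mucous cells and leukocytes, and air exposure is a handling stressor that acts through cortisol and catecholamines. A positive interaction here means that the level rose more, or fell less, in water than in mucus.

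One sequence is shown, because the counts of its miRNA decide how the miR-26 family reads below. It is a 22-base read in DNA letters with the seed, bases 2 to 8, in capitals.
miR-26a-5p: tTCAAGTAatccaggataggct
The read was among the over-represented reads of 4 of the 12 libraries, namely control mucus 1 and 2 and stressed water 1 and 3. In 3 of those 4 libraries the count table gives miR-26a-5p as 0, the exception being stressed water 1. A count of 0 for a single member of a family is therefore given below as the table lists it.

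Counts of known miRNAs ranged from 315428 to 4792838 per library. Stressed water was the deepest group, with 3061303 to 4792838 against 315428 to 591733 in control water, so depth moved with treatment in water. A median of 127 known miRNAs had counts in stressed water and 95 in control water. At the depth of the smallest library, control water 3, the expected numbers were 118.8 to 123.3 in stressed water and 94.8 and 94.9 in control water 1 and 2, while control water 3 held 11.8 fewer than the lowest stressed water library. The part of depth in the water response was not tested. Location-named rows, which the authors predicted from the genome, held 96.4% of all counts in stressed mucus 1, 87.8% in stressed mucus 2 and 78.9% in control mucus 3, and between 8.83% and 52.5% in the other 9 libraries. The miRNAs of epithelium and skin held 7.95% to 21.9% of known counts, those of red blood cells at most 0.0446%, and none of the muscle miRNAs had counts in any of the 12 libraries. The epithelium and skin share includes miR-200a rows of nearly the same counts, each counted.

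No miRNA differed between the water and the mucus response in the main test at the thresholds of the study. These asked for a p no larger than 0.05, a false discovery rate (FDR) below 0.1 and a log2 difference beyond 2 in either direction. By edgeR's quasi-likelihood test, 0 of 117 single miRNAs (0%) and 0 of 80 families (0%) passed, with a smallest FDR of 0.278 and 0.311. Before adjustment, 16 single miRNAs (13.7%) reached a p of 0.05, of which 15 were positive (12.8%) and 1 was negative (0.855%). Other tools passed more, among them DESeq2, which the study used beside edgeR, listing miRNAs found by either. DESeq2 passed 8 single miRNAs and 5 families, edgeR's likelihood ratio test 7 and 4, and limma voom 2 and 1. These lists differed in their members. The interactions passed by limma voom had counts in stressed water only, so no mucus change was compared. miR-30b-5p, miR-125a-5p, miR-142a-5p, miR-23b-5p, miR-196a-5p and miR-24a-3p passed by both DESeq2 and the likelihood ratio test. Each of them had a whole group listed at 0, so both tools rested on the same listed zeros. A group at 0 was found for 19 of the 117 tested and for 7 of the 16 above. The spread was wide: the median half-width of the 95% intervals was 3.72 on the log2 scale, and the interval lay within 2 of 0 on that scale for 12 miRNAs and within 1 for none of the 117.

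The 2 responses that form the difference were tested in the same fit, with a single estimate of spread per miRNA over all 4 groups. A p-value of the water response therefore also carries the spread among mucus libraries. In water 2 of 117 miRNAs (1.71%) rose past the thresholds, miR-27c-3p and miR-128-4-5p, and in mucus 0 of 117 (0%) did. Both had counts in stressed water only, so they passed the low-count filter through the group in which they were high. By DESeq2 6 passed in water and 14 in mucus, by the likelihood ratio test 5 and 18, and by limma voom 8 and 0. Both calls in water were lost without any 1 of the 3 stressed water libraries, and without stressed water 3 miR-26a-5p passed in their place. Without control mucus 3, 16 miRNAs passed in mucus. Before adjustment, 9 miRNAs (7.69%) reached a p of 0.05 in water, 5 of them higher and 4 lower after stress (4.27% and 3.42%). In mucus it was 24 miRNAs (20.5%), 1 of them higher and 23 lower (0.855% and 19.7%). For 13 of the 16 miRNAs with the smallest interaction p, the mucus response was the larger in absolute size. The median interaction over the 117 was 0.81, a shift that was 0.28 with size factors of the RLE kind and 0.66 with no scaling factor. Interactions of single miRNAs and families below are given and tested against 0, with the shift not subtracted. Only the lists by role are set beside it.

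Opposite and shared directions were equally frequent. The fitted response was positive in water and negative in mucus for 42 of the 117, negative in both for 38, positive in both for 18, and negative in water but positive in mucus for 14, while 5 had a fitted response of 0 in mucus. Compared tank by tank, the water change lay above the mucus change in 3 of 3 tanks for 27 miRNAs and in 0 of 3 for 8. Across all 117 miRNAs the log2 responses of the sample types had a Pearson's r of 0.00095, and across the 98 with counts in every group it was 0.36, with a Spearman's rho of 0.09. These are descriptions across miRNAs that share the 12 libraries.

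**Figure D1:**
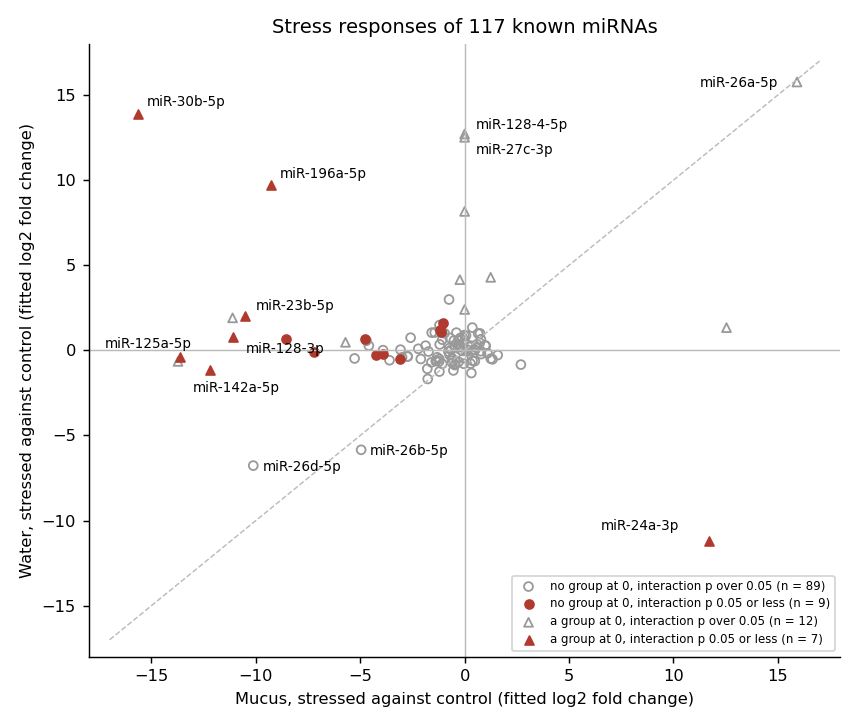
Fitted log2 fold change of stressed against control in mucus (horizontal axis) and in water (vertical axis) for the 117 tested miRNAs, 1 point each. Triangles have a group of 3 libraries at 0 and filled points an unadjusted interaction p of 0.05 or less. The dashed line marks equal responses, and most filled points lie to the left, where the mucus response was negative.

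The miRNA with the smallest interaction p was miR-30b-5p, a member of a family that restrains epithelial to mesenchymal transition in mammals. Levels are counts per 1000000 counts of the tested rows (CPM), scaled by TMM factors, which even out composition between libraries. miR-30b-5p stood at 0, 0 and 0 in control water and at 1189, 1295 and 1242 in stressed water, in the order of replicates 1 to 3. In mucus it stood at 10657, 1859 and 0 in control libraries and at 0 in the 3 stressed libraries. Stressed water lay wholly above control water, whereas control mucus 3 was at 0 like the stressed mucus, so the mucus groups overlapped. Against a limit of 3 counts over a group at 0, the listed level was at least 516-fold higher in stressed water and at least 3220-fold lower in stressed mucus. These bounds hold only if the listed counts of 0 are right. The paper's PCR of separate samples gave far smaller changes, higher in stressed water and lower in stressed mucus, the latter short of its significance threshold. The interaction had an unadjusted p of 0.00238 and an FDR of 0.278 by edgeR, and the water change lay above the mucus change in 3 of 3 tanks. In a fit of all 18 libraries the FDR was 0.00577, and without control mucus 3 it passed as well.

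miR-24a-3p was the only miRNA of the 16 with a negative interaction. It belongs to the miR-23, miR-27 and miR-24 clusters, which act in blood cells and vessels in mammals. Its CPM was 575 in control water 1 and 0 in the other 5 water libraries, and 394 and 419 in stressed mucus 1 and 2 and 0 in the other 4 mucus libraries. A single control water library therefore set the water change, and the unadjusted p was 0.0152 (edgeR, FDR 0.309). miR-196a-5p, transcribed from within the Hox clusters, had a positive interaction with an unadjusted p of 0.0338 on counts in few libraries. It stood at 150 CPM in control mucus 2, at 104 and 96.6 in stressed water 2 and 3, and at 0 in the other 9 libraries.

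Another group of miRNAs had counts in some control mucus libraries and none in stressed mucus, while stressed water held counts in every library. miR-125a-5p, a relative of the worm lin-4 miRNA, stood at 609, 2455 and 0 CPM in control mucus and at 0 in the 3 stressed mucus libraries. In water it stood at 2128, 4161 and 5221 CPM before and 1687, 2532 and 4413 CPM after air exposure, with overlapping groups. The level in stressed mucus was at least 788-fold lower, against a mean ratio of 0.75 in water. The interaction had an unadjusted p of 0.00518 and an FDR of 0.303 by edgeR, which became 0.0337 in the fit of all 18 libraries.

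miR-142a-5p, which marks blood-forming cells and leukocytes, was likewise absent from stressed mucus but was lower in stressed water. It stood at 0, 1059 and 65.3 CPM in control mucus and at 0 in the stressed mucus libraries. Water stood at 493, 471 and 459 CPM before and at 201, 163 and 268 CPM after air exposure, with no overlap between the groups. The fitted water change of −1.17 had an unadjusted p of 0.53 (edgeR), which also carries the spread among mucus libraries. The mucus level was at least 289-fold lower after stress, and the interaction had an unadjusted p of 0.0139 (edgeR, FDR 0.309).

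miR-23b-5p stood at 225, 134 and 0 CPM in control mucus, at 0 in stressed mucus, at 99, 0 and 0 CPM in control water and at 116, 96.4 and 197 CPM in stressed water. Its interaction had an unadjusted p of 0.0185 (edgeR). miR-128-3p, abundant in mammalian brain, was counted in mucus only in control library 2, at 535 CPM. In water it stood at 0, 523 and 428 CPM in control and at 452, 594 and 583 CPM in stressed libraries, and the unadjusted p was 0.0461. miR-128-2-5p had nearly the same values in mucus and in stressed water, with 536 CPM in control mucus 2 alone. In control water it differed, at 0, 0 and 434 CPM, and its unadjusted p was 0.0522 (edgeR). The rows of the miR-128 arms thus rested on 1 mucus library.

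**Figure D2:**
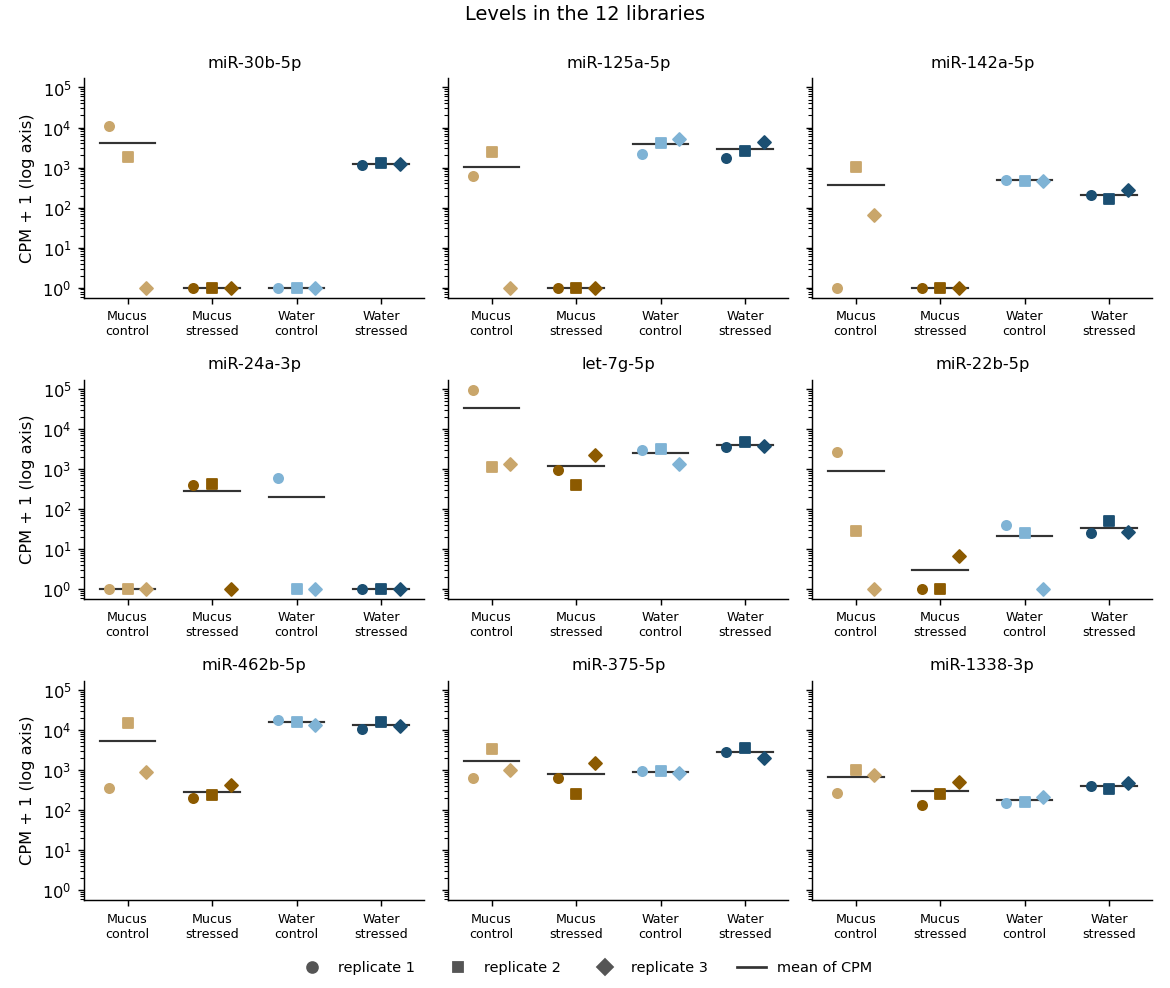
CPM plus 1 on a log axis for 9 miRNAs in the 12 libraries, 1 symbol per replicate with the mean of CPM as a line. Points on the lowest level are libraries at 0, as for miR-30b-5p in stressed mucus and control water.

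In a further set, every group had counts and a single control mucus library stood far above the rest. let-7g-5p, of the family that times differentiation, stood at 94864 CPM in control mucus 1 and at 1129 and 1312 CPM in control mucus 2 and 3. Stressed mucus held 924, 388 and 2242 CPM, control water 3017, 3144 and 1296 CPM, and stressed water 3537, 4759 and 3670 CPM. Stressed water was above control water in all libraries while the mucus groups overlapped. The interaction of 5.46 ± 2.08 (SE, log2) had an unadjusted p of 0.0261 (edgeR, FDR 0.309), and without control mucus 1 it was 0.76 with an unadjusted p of 0.444.

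Similarly, miR-22b-5p stood at 2654 CPM in control mucus 1, at 26.5 and 0 in the other control mucus libraries, and at 0 to 48.0 CPM in the other 9. miR-22 is widely expressed. miR-122-5p, the main miRNA of vertebrate liver, stood at 806 CPM in control mucus 1 and at 0 to 20.6 CPM in the other 11 libraries. Their interactions were 9.21 and 7.09 (log2) with all libraries, and 3.12 and 1.61 without control mucus 1, where the unadjusted p values were 0.253 and 0.48.

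Control mucus 2 held the high value for the miR-462 pair, teleost miRNAs that rise with viral infection and interferon in trout. miR-462b-5p stood at 356, 15082 and 906 CPM in control mucus, at 202, 237 and 423 CPM in stressed mucus, at 17691, 16258 and 13377 CPM in control water and at 10737, 15705 and 12758 CPM in stressed water. Control mucus 2 thus resembled water in level, while no other mucus library was above 906 CPM. The interaction of 3.97 ± 1.55 (SE, log2) had an unadjusted p of 0.029 (edgeR, FDR 0.309), and without control mucus 2 it was 0.58 with an unadjusted p of 0.465. For miR-462a-5p it was 3.66 ± 1.53 with all libraries and 0.34 without control mucus 2.

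This dependence held for most of the leading miRNAs. Of the 15 positive at an unadjusted p, 6 were highest in control mucus 1 and 9 in control mucus 2. Of the 109 tested miRNAs with counts in control mucus, 48 were highest in control mucus 1, 48 in control mucus 2 and 13 in control mucus 3. Over 80% of the control mucus CPM lay in a single library for 10 of the 15 and for 31 of the 109. For each of the 15, the fit was repeated without the control mucus library in which it was highest. That choice lowers the control mucus mean, so a smaller positive interaction was fixed in advance and only its size is informative. In those fits, miR-128-3p and miR-196a-5p had no counts left in mucus and their interactions could not be read. The other 13 interactions were still positive, and 4 of the 13 kept an unadjusted p of 0.05 or less. These were miR-30b-5p, miR-125a-5p, miR-142a-5p and miR-23b-5p, which also stayed within it in each of the 12 fits that left out 1 library. All 4 had no counts in stressed mucus, so each of those fits kept a group without counts. Their persistence therefore does not show that replicates were alike. Control mucus 1 had 52.5% and control mucus 2 had 19.5% of their counts in location-named rows, and the part of these shares in the result was not tested.

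**Figure D3:**
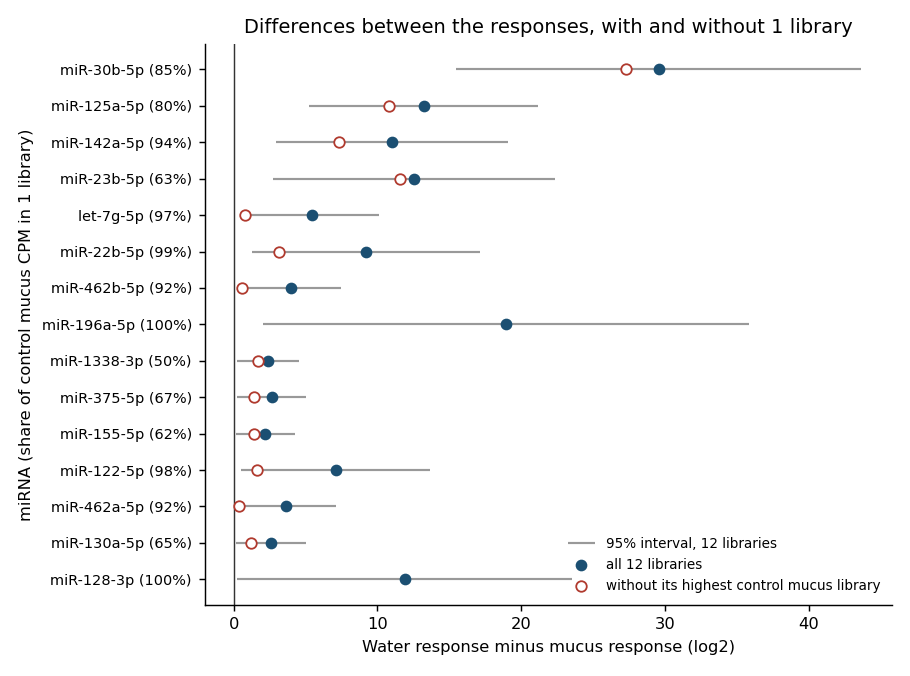
Interaction (water response minus mucus response, log2) with its 95% interval for the 15 positive miRNAs of unadjusted p 0.05 or less, and the same value without the control mucus library in which each was highest (open circles). The share of control mucus CPM in that library stands beside each name. miR-128-3p and miR-196a-5p have no circle, since no mucus counts were left. Open circles lie near 0 for let-7g-5p, miR-462a-5p and miR-462b-5p. Leaving out the highest control mucus library lowers a positive value by construction.

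A smaller group was higher in all stressed than in all control water libraries and lower on average in stressed mucus. miR-375-5p, a miRNA of islets and of secretory and neuroendocrine epithelium, went from 948, 947 and 826 CPM in control water to 2863, 3476 and 1958 CPM in stressed water, a ratio of means of 3.05. In mucus it stood at 621, 3306 and 1025 CPM in control and at 644, 245 and 1538 CPM in stressed libraries, so the mucus groups overlapped. The interaction was 2.64 ± 1.09 (SE, log2), in 3 of 3 tanks, with an unadjusted p of 0.0359 (edgeR, FDR 0.309), and without control mucus 2 it was 1.41.

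miR-155-5p, which activated leukocytes express, went from 78.0, 83.2 and 36.1 CPM to 152.3, 157 and 105.5 CPM in water and from 129.4, 44.2 and 34.1 CPM to 29.3, 18.2 and 46.2 CPM in mucus. miR-1338-3p went from 151.7, 161 and 212 CPM to 403, 336 and 465 CPM in water and from 272, 1001 and 732 CPM to 132, 245 and 515 CPM in mucus. In both, the water groups were apart and the mucus groups overlapped. The interactions were 2.21 ± 0.92 and 2.37 ± 0.97 (SE, log2), with unadjusted p values of 0.0367 and 0.0349 by edgeR. let-7h-5p and miR-148a-5p had the same arrangement, with 1.97 ± 1.04 and 2.69 ± 1.29 and unadjusted p values of 0.0869 and 0.065. Over all tested miRNAs, stressed water lay wholly above control water for 18 (15.4%) and wholly below for 16 (13.7%), and stressed mucus lay wholly above control mucus for 6 (5.13%) and below for 5 (4.27%).

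Counts in stressed water and in no other group were held by 11 of the 157 miRNAs, of which 8 were too low to be tested. For the 3 tested, the fit gave no usable error of the interaction. These 3 passed the low-count filter through stressed water alone, the group in which they were high, so their water FDRs give no separate support. miR-27c-3p stood at 419, 442 and 563 CPM in stressed water, at least 197-fold higher than in control water (edgeR FDR 0.0331), and its 2 arms are listed with identical counts. miR-128-4-5p stood at 452, 597 and 582 CPM, at least 226-fold higher (FDR 0.0331), and in those libraries it had the same counts as miR-128-2-5p. The miR-128-2-5p row held 434 CPM in control water 3, where miR-128-4-5p was at 0. The bound for miR-128-4-5p therefore does not cover the arm as a whole. let-7d-3p stood at 15.3, 25.6 and 28.6 CPM, at least 9.63-fold higher (FDR 0.355). Limma voom, which does give an error for such rows, passed the interactions of miR-27c-3p and miR-128-4-5p, at 8.53 and 8.72 (log2). Its water responses for them were 8.61 and 8.79. With no counts in mucus, these interactions restate the water response and compare it with no measured mucus change. With replicate as a block in water, neither passed in the water response and miR-26a-5p did, in water and in mucus, and with a block common to both sample types 0 miRNAs passed in water.

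The miR-26 family, whose members restrain growth and chromatin regulators in mammals, is listed with a different make-up in control and stressed libraries of both sample types. The mucus part of that difference rests on miR-26a-5p at 0 in control mucus 1 and 2, where its read was over-represented. miR-26a-5p was listed at 0 in all 6 control libraries, at 4208, 4058 and 6784 CPM in stressed mucus and at 6832, 6713 and 0 CPM in stressed water. The paper's PCR of separate water samples, a presence or absence test, found it in stressed water and not in control water. Mucus was not covered by that PCR for this miRNA. miR-26b-5p stood at 42708, 174 and 0 CPM in control mucus, at 315, 539 and 528 CPM in stressed mucus, at 8876, 8928 and 9738 CPM in control water and at 177, 121 and 182.4 CPM in stressed water. The water levels of miR-26b-5p did not overlap. In mucus its mean was higher in control libraries through control mucus 1 alone, and in replicates 2 and 3 the stressed level was the higher.

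The interactions of the miR-26 members depended on single libraries. That of miR-26b-5p was −0.89 ± 2.77 (SE, log2), and without control mucus 1, which held 99.6% of its control mucus CPM, it was −8.29 with an unadjusted p of 0.00335 (edgeR, FDR 0.151). That of miR-26d-5p was 3.35 ± 4.63, a miRNA at 41996 CPM in control mucus 1 and 9650 CPM in control water 3 and at 0 to 54.7 CPM elsewhere. For miR-26a-5p the fit gave no usable error, since both control groups were at 0. Summed, the family stood at 65353, 192.04 and 0 CPM in control mucus, 4771, 4375 and 7886 CPM in stressed mucus, 9635, 9551 and 19767 CPM in control water and 7598, 7108 and 235 CPM in stressed water. The summed interaction was 0.56 ± 2.98 (SE, log2), and its sign was negative by limma voom and with a block common to both sample types. The sum may lack miR-26a-5p in control mucus 1 and 2 and stressed water 3, where its read was over-represented but listed at 0. In control mucus 1 and control water 3 the sum may also count reads more than once. There miR-26b-5p and miR-26d-5p were nearly equal, at 33015 and 32465 counts and at 3773 and 3739 counts. Whether they shared reads was not tested. Members of the family differed in opposite directions. miR-26a-5p made up 88.3% to 97.9% of the family in 5 of the 6 stressed libraries. It was at 0 in stressed water 3, where the read shown above was over-represented.

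The miR-30 family was steadier. miR-30a-5p, miR-30c-5p, miR-30d-5p and miR-30e-5p were wholly lower in stressed than in control water, while miR-30b-5p, at 0 before, made up 37.1% to 44.7% of the family after. miR-30d-5p went from 1597, 3084 and 2524 CPM to 539, 671 and 1041 CPM in water and from 352, 1436 and 216 CPM to 205.4, 203.01 and 180 CPM in mucus. The groups did not overlap in either sample type, and its interaction was 0.09 ± 0.97 (SE, log2), with the sign depending on the scaling. The interactions of miR-30a-5p, miR-30c-5p and miR-30e-5p were 0.71 ± 0.98, 0.57 ± 0.83 and −0.36 ± 0.97, where that of miR-30c-5p was negative with library sizes from all rows.

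Summed over its 5 members, the miR-30-5p family stood at 12640, 5165 and 1217 CPM in control mucus and at 1481, 1197 and 1724 CPM in stressed mucus. In water the sums were 4000, 5289 and 4479 CPM in control and 2869, 3184 and 3609 CPM in stressed libraries. The summed family was therefore lower in stressed water, although miR-30b-5p alone was higher. Its interaction was 1.60 ± 0.88 (SE, log2, 95% interval −0.37 to 3.57), with an unadjusted p of 0.1 by edgeR, against 29.56 ± 5.68 fitted for miR-30b-5p alone, a value that depends on the treatment of counts of 0.

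**Figure D4:**
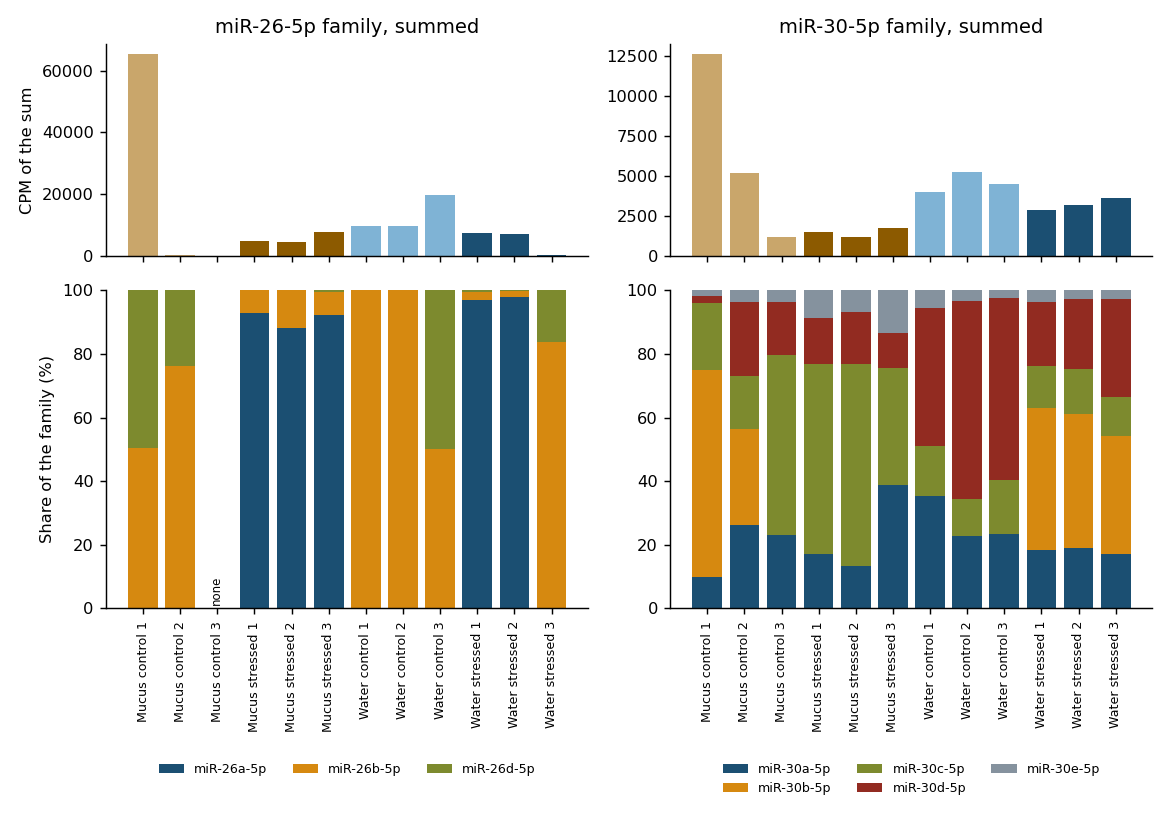
Summed CPM (upper panels) and the share of each member in percent (lower panels) for the miR-26-5p and miR-30-5p families in the 12 libraries. miR-26a-5p fills most of the stressed bars but is missing in stressed water 3, and miR-30b-5p appears in control mucus 1 and 2 and in stressed water.

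Among summed families, 8 of 80 had an interaction with an unadjusted p of 0.05 or less (10%), with 7 positive (8.75%) and 1 negative (1.25%), and 6 of the 8 had a group at 0. The smallest p, 0.00421, belonged to miR-125-5p (edgeR, FDR 0.311), in which miR-125b-5p made up 35.8% to 43.7% of stressed water, 39.7% of control water 3 and none of the other libraries with counts. miR-24-3p, miR-142-5p, miR-122-5p, miR-128-3p and miR-462-5p followed their single members, with unadjusted p values of 0.0112, 0.015, 0.0378, 0.0448 and 0.0428. The let-7-3p sum stood at 16.5, 26.5 and 30.8 CPM in stressed water and at 41.9 CPM in control mucus 1, from different members, with an unadjusted p of 0.0156. In the miR-128-5p sum (p 0.0375) the stressed water counts of the arm entered from both rows. Where a large sum held the single miRNA, the difference was smaller: let-7-5p had 2.27 ± 1.24 and miR-22-5p had −0.46 ± 0.41 (SE, log2), against 5.46 and 9.21 for let-7g-5p and miR-22b-5p.

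Of the 10 most abundant miRNAs, miR-462a-5p, described above, had an interaction of 3.66, and the other 9 had values between −1.004 and 1.09 on the log2 scale. miR-146a-5p, which dampens inflammatory signalling through NF-κB in mammals, held 30.8% to 67.2% of known counts, and its interaction was −0.40 ± 0.58 (SE, log2, 95% interval −1.70 to 0.90). The epidermal miR-203a-3p and miR-203b-3p had −0.69 ± 0.69 and −0.37 ± 0.62, and stressed mucus lay above control mucus in all libraries for miR-203a-3p, at 42881 to 45054 against 11950 to 39964 CPM. The epithelial miR-200a-2-5p and miR-200b-3p had 0.46 ± 0.46 and 0.70 ± 0.80. miR-21a-5p, which rises in many injured tissues, had 0.07 ± 0.46 with an interval of −0.96 to 1.105, and miR-21b-5p had −1.004 ± 2.53, with control mucus 2 at 0 and the other 11 libraries at 33363 to 110960 CPM. miR-10b-5p and miR-100a-5p, from Hox and let-7 clusters, had 0.81 ± 0.74 and 1.09 ± 0.59. The signs of miR-21a-5p, miR-203b-3p, miR-200a-2-5p, miR-200b-3p and miR-10b-5p depended on the scaling or on 1 library.

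Over all 117 miRNAs, 80 (68.4%) had a positive interaction, and the lists by role are set against that share. The let-7 list had 8 of 8 tested members positive, with a median of 2.14 against 0.81 over all, and 1 member at an unadjusted p of 0.05 or less. With members that had a group at 0 set to their bound, where there is one, these medians were 1.97 and 0.70. let-7 miRNAs held 21.6% of known counts in control mucus 1 and 1.25% to 6.12% in the other 11 libraries. Without control mucus 1, 6 of 8 were positive with a median of 0.90, against 65% and 0.49 over all 117. The miR-10, miR-99 and miR-100 list had 5 of 5 positive with a median of 1.09, or 3 of 5 and 0.12 without stressed water 3, and miR-99-5p had 3.33 ± 1.53 (SE, log2), with 8677 CPM in control mucus 1 and 234 to 2956 CPM in the other 11 libraries. Of the endothelial and thrombocyte miRNAs, 5 of 6 were positive with a median of 2.40, and without control mucus 1 it was 2 of 6 with a median of −0.44. That library held 1.29% of its known counts in these miRNAs, against 0.0922% to 0.451% in the other 11. miR-126-5p of endothelium stood at 2391 CPM in control mucus 1 and 17.03 to 163 CPM in the other mucus libraries, against 282 to 723 CPM in water. miR-199a-3p, of connective tissue, was at 1476 CPM in control mucus 1, at 54.8 CPM in stressed mucus 3 and at 0 in the other 4 mucus libraries. Without control mucus 1 the sign of miR-199a-3p turned, from 5.27 to −7.20.

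Without control mucus 2, 53.8% of all 117 interactions were positive, with a median of 0.24. The leukocyte list had 6 of 7 positive with a median of 0.87, or 5 of 7 and 0.38 without control mucus 2, and the neural list 4 of 6 with a median of 9.03, which came from rows with a group at 0 and was 2.00 with those at their bound and 0.75 without control mucus 2. For the gut and secretory list it was 2 of 3 with a median of 1.59, or 0.45 without control mucus 2, where miR-192a-5p of gut and liver was lower in all stressed than control mucus libraries, at 229 to 755 against 1155 to 3975 CPM. The epithelium and skin list split evenly, with 6 of 12 positive and a median of 0.16, and without control mucus 2 it had 2 of 12 positive and −0.57. Its positive members included miR-200a-1-5p, miR-200a-2-5p and miR-200a-3p, each at 0.46. These had nearly the same counts, so the list counted 1 set of values repeatedly. miR-182-5p had 1.66 ± 0.85 and miR-205b-5p −1.12 ± 0.75 (SE, log2). The widely expressed miRNAs had 4 of 7 positive with a median of 0.26, or −0.36 with 1 row at its bound.

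The hypoxia and stress list had 1 of 4 positive with a median of −0.32, and miR-29b-2-5p, counted as negative, was at −0.008. Without control mucus 1 it was 2 of 4 with −0.04, and without control water 2 it was 0 of 4 with −0.94. miR-210-5p, an arm of the miRNA most tied to hypoxia, had −0.64 ± 1.90 (SE, log2) at no more than 65.3 CPM in any library. The miR-15 and miR-16 list had 1 of 4 positive with a median of −0.15, with miR-15c-5p at −0.28 ± 0.83 and miR-15d-5p at −1.74 ± 1.45. The miR-17 to miR-92 list had 4 of 9 positive with a median of −0.16, or −0.61 at the bound, although miR-92a-3p and miR-92a-4-5p, whose counts were nearly the same, had 2.36 ± 1.26 and 2.38 ± 1.27. The miR-23, miR-24 and miR-27 list had 8 of 11 positive with a median of 0.67, or 0.51 at the bound, and miR-30 had 4 of 5 with 0.57. Without control mucus 2 these were 5 of 11 with −0.40 and 2 of 5 with −0.14. The single red blood cell row was positive at 2.59. Over the 12 fits that left out 1 library, the median ran from −0.66 to 0.11 for the miR-15 and miR-16 list and from −0.60 to 1.44 for the widely expressed miRNAs. No member of these lists passed the thresholds in the interaction, and the lists are described by counts only.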

How the data were processed

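Small RNA libraries were made from epidermal mucus and filtered tank water of rainbow trout. Per the labels and the study's methods, the authors trimmed reads with cutadapt 2.10 to 18 to 35 bases, aligned them with Bowtie 1.1.1 (1 mismatch) to the trout genome Omyk_1.0 and counted known Atlantic salmon miRNAs with miRDeep2. The deposited table holds estimated counts, averaged over precursors and all whole numbers here. The other deposited tables hold the authors' own fold changes and p-values and were not used.

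Counts of the 12 libraries were tested with edgeR 4.0.16 in R 4.3.3: TMM scaling, filterByExpr by group, and the quasi-likelihood test of the interaction of 4 group means, with Benjamini-Hochberg adjustment. Alternatives used DESeq2 1.42.0 and limma 3.58.1. The fit was also run on simulated counts, with changes in stressed water only and no outlying libraries built in. That run does not bear on results that rest on a single library. A floor of 3 counts per group bounded folds against groups at 0 and covers counting error only, so these bounds hold for the counts as listed. Counting error of a level follows from the 283696 to 4304375 counts of tested single miRNAs per library.

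The study's methods pair both waters of 1 tank, and equal replicate numbers were taken as such pairs. Deviations of same-numbered waters correlated at −0.06, 0.07 and 0.01 and those of mucus, from different fish, at −0.09, −0.11 and −0.01. The highest correlations with another number were 0.12, 0.02 and 0.10 in water and 0.09, 0.09 and 0.01 in mucus. With 3 replicates these correlations cannot show that the tank had no effect. The study blocked by tank for water only, so the main test used no block and fits with a block were alternatives. Neither call in water passed under either block. The p-values rest on a single estimate of spread per miRNA, taken over the 4 groups of 3 libraries. Spread among mucus libraries therefore entered the p-values of the water response, and the reverse. Named were the 12 miRNAs and 8 families of smallest interaction p, the 10 most abundant, the miR-26 and miR-30 members, the 2 smallest p of each list with 3 or more tested members, and the members of named families. A few other rows are named for their water calls or their place in a list. Members and lists were chosen with earlier results of these data known.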

Additional observations from a re-analysis of the deposited data

Results flagged for a closer look

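Rows named by genome location, which the comparisons do not use, held 96.4% of all counts in stressed mucus replicate 1, above the 19.5% to 78.9% of the control mucus libraries. With those rows added to the test, 0 interactions of single miRNAs passed, as without them.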

How the results depend on the processing

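Counts that passed depended on the tool. DESeq2 passed 8 interactions of single miRNAs and 5 of families, with 6 water and 14 mucus responses. The edgeR likelihood ratio test passed 7, 4, 5 and 18 of these, and limma voom 2, 1, 8 and 0. The interactions by limma voom were of rows with counts in stressed water only. All 18 libraries in 1 fit gave 2 single interactions and 1 of a family. With location-named rows added, 0 water responses passed. With the replicate as a block common to both sample types 0 water responses passed, and with a block in water only 1 water and 1 mucus response, both miR-26a-5p, while the interactions stayed at 0 passed under either block. The other scalings, no filter and all identical rows kept gave 0 interactions.

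Leaving out 1 library gave 0 to 2 single interactions, 0 to 1 families, 0 to 4 water and 0 to 16 mucus responses. Without control mucus 3 miR-125a-5p and miR-30b-5p passed in the interaction, with 16 mucus responses, and without control mucus 1 miR-142a-5p did, with 3. The family miR-196-5p passed without control water 1, miR-142-5p without control mucus 1 and miR-125-5p without control mucus 3. In water, 4 passed without control water 3, 3 without control mucus 3, 1 (miR-26a-5p) without stressed water 3 and 0 without stressed water 1 or 2, and without stressed water 3 there was 1 mucus response.

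Signs turned for interactions near 0 or with little data; the cause was not tested. miR-30d-5p (0.09) was −0.55 with RLE factors, −0.065 with no scaling, −0.65 with library sizes from all rows, −0.31 with TMM within sample types, −0.32 with no filter, −0.54 by DESeq2, −0.27 by limma voom, −0.12 with the common block and −0.36 with all 18 libraries. The interaction of miR-21a-5p (0.07) was −0.27 with RLE factors and by DESeq2, −0.24 with library sizes from all rows, −0.0403 with TMM within sample types, −0.21 with no filter and −0.19 with all 18 libraries. miR-26a-5p (−0.15) was 0.20 with no scaling, 0.17 with TMM within sample types, 0.14 with no filter and 0.56 by DESeq2. miR-30c-5p was −0.094 with library sizes from all rows, miR-125b-5p −0.93 by DESeq2, and the interaction of miR-26-5p (sum) −6.11 by limma voom and −1.85 with the common block. Leaving out 1 library gave −0.34 to 1.08 for miR-10b-5p, −0.79 to 0.068 for miR-15c-5p, −7.20 to 12.80 for miR-199a-3p, −0.064 to 0.80 for miR-200a-2-5p, −0.77 to 1.12 for miR-200b-3p, −0.91 to 0.067 for miR-203b-3p, −0.41 to 0.19 for miR-21a-5p, −7.59 to 1.63 for miR-26-5p (sum), −0.85 to 0.60 for miR-26a-5p, −5.80 to 18.15 for miR-26d-5p, −0.14 to 1.22 for miR-30a-5p, −0.36 to 0.57 for miR-30c-5p and −1.61 to 0.36 for miR-30d-5p. Of the values of named miRNAs and families under alternatives, 1243 kept their sign and their side of the thresholds, 31 passed in addition and 60 turned.

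With 3 libraries per group, a difference smaller than the half-width of a miRNA's own interval could not be shown. That half-width varied between miRNAs, around the median given above. A group at 0 allows up to 3 counts. Nearly identical rows can share reads, which makes single members of a family uncertain. Sums can count such reads more than once, as where miR-128-2-5p and miR-128-4-5p both held 2186 counts in stressed water 1. The miR-26 sum is no safer than its members. The miR-26a-5p read was over-represented in control mucus 2 and stressed water 3, where the whole sum held 285 and 928 counts.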
